A study of Artemia parthenogenetic lineage with 3 samples.

Results

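ATAC-seq measures how open chromatin is, because the Tn5 transposase places adapters mainly where DNA is free of tightly packed nucleosomes. The members described here are the listed peaks with a low read density in whole cysts of parthenogenetic Artemia at 30 min after embryonic diapause termination (EDT). They were selected on the deposited RPM (reads per 1000000 reads of the library total) divided by peak width in kb. A peak was taken when this density was below 1.5 RPM per kb in each of the 3 replicates. The rule found 5642 of 108316 listed peaks, which is 5.21% (exact 95% interval 5.08 to 5.34, counting error over peaks only).

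All libraries belong to the ArR_30min group, of WT genotype by its labels, and no other treatment is labelled. The study calls the 3 samples biological replicates and draws its cysts from 1 batch, so the spread below is that between samples of this batch. The reads were placed on the assembly ASM3288406v1 of a related species, Artemia franciscana. The study merged peaks over all of its samples, at diapause and a later time as well as at 30 min. Those other times were not analysed here, and a listed peak need not be a peak call at 30 min.

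A merged peak list records where accessible chromatin was called at least once, and the reads of a given sample then show how much of it is accessible in that sample. Gene starts are known as the places where accessible chromatin is most regular, since the transcription machinery keeps them clear of nucleosomes. Sites far from genes can be regulatory elements used at some stages and not at others. The encysted Artemia embryo is arrested, and its development starts again after EDT.

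The working name of these sites, nearly closed, was checked against the density outside listed peaks. Reads outside peaks gave a mean of 0.570, 0.577 and 0.573 RPM per kb in replicates 1, 2 and 3 over the 1583 Mb spanned by listed peaks and genes. The members had medians of 1.04, 1.15 and 1.19 RPM per kb, which are 1.82, 1.99 and 2.07 times that mean. Other listed peaks had medians of 2.21, 2.14 and 2.28 RPM per kb, or 3.88, 3.71 and 3.98 times the mean. In replicates 1, 2 and 3, 7.82%, 4.08% and 2.16% of the members lay under the mean outside peaks, against 0.35%, 0.164% and 0.0467% of other peaks. The members therefore sat between the mean outside peaks and the typical listed peak, and they are called low-density peaks from here on. The spanned length includes sequence on which no read can be placed, and the reads outside peaks include those on contigs without a listed peak, so the mean is approximate. Densities in peaks include 1 read that the authors' RPM adds to each count, and the mean outside peaks does not. With median counts of 16, 19 and 29 reads in members, this raises their ratios and lowers their shares under the mean.

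The threshold passed through a continuous range of densities. Members ranged from 0.0498 to 1.5 RPM per kb in replicate 1, from 0.0681 to 1.5 in replicate 2 and from 0.112 to 1.5 in replicate 3, and the upper end is the rule itself. Their quartiles were 0.824 and 1.24 in replicate 1, 0.949 and 1.33 in replicate 2, and 0.987 and 1.34 in replicate 3. In 1871 members (33.2%) the highest replicate was over 1.4 RPM per kb. Every replicate was under 1 RPM per kb in 434 members, under 0.5 in 9 and under 0.25 in 5. The 3 members nearest to the threshold had highest values of 1.4999 (ctg534), 1.4997 (ctg279) and 1.4997 RPM per kb (ctg100), and the 3 peaks just outside it had 1.5 (ctg241), 1.5 (ctg272) and 1.5002 (ctg1044). The member of ctg534 had 0.374, 1.5 and 0.963 RPM per kb in replicates 1, 2 and 3, while the peak of ctg241 just outside had 0.966, 1.5 and 1.45. Single replicates of the peaks just outside lay below the threshold, so that members and peaks outside the rule overlapped in each replicate.

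**Figure D1:**
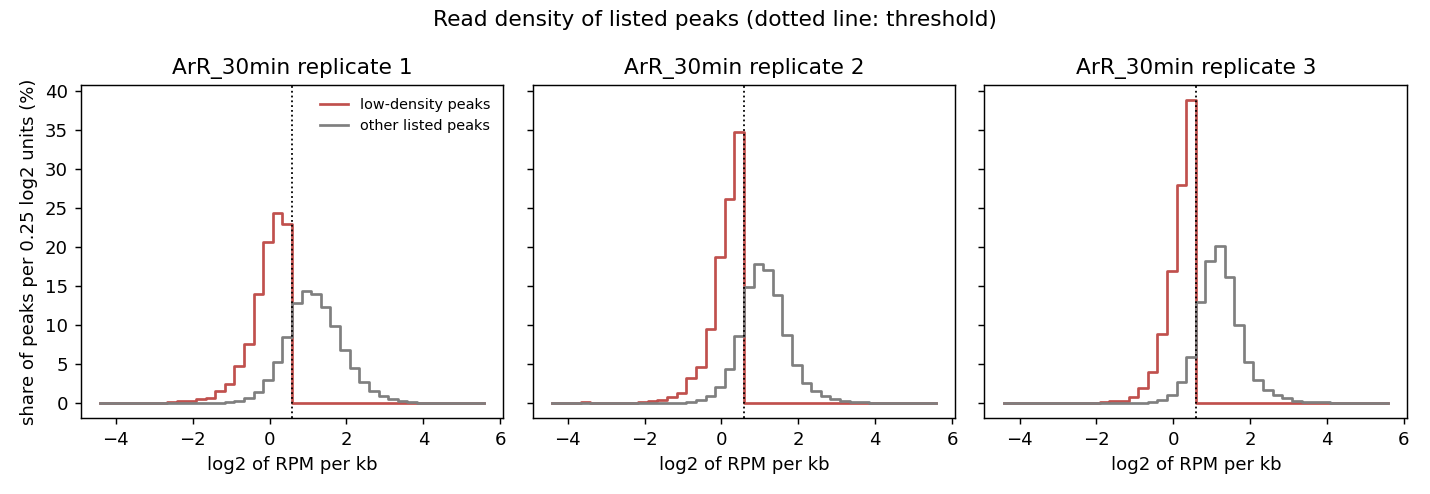
Share of peaks (%) per 0.25 log2 units of RPM per kb, for the 5642 low-density peaks and the other listed peaks in each of the 3 replicates, with the threshold of 1.5 as a dotted line. Low-density peaks end at the line because the rule sets it there, and other peaks reach below it in single replicates.

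A low-density peak held few reads. The median was 16 reads in replicate 1, 19 in replicate 2 and 29 in replicate 3, against 37, 39 and 60 reads in other peaks. The library totals recovered from the RPM values were 53022269, 56882821 and 82440231 reads, so replicate 3 resolved these sites best. These totals hold both mates of each fragment, so counts were divided by 2 for every counting bound given here. The exact Poisson upper 95% bound named here and below is the upper end of a two-sided 95% interval. On counts divided by 2, which need not be whole, it is approximate. With the 3 replicates summed, the exact Poisson upper 95% bound was then under 1.5 RPM per kb in 2787 members (49.4%), and the others are not separated from the threshold by counting. With each mate taken as a count of its own it was under 1.5 in 4336 members (76.9%), which overstates the precision. The bounds cover counting error only. Every bound given here uses the counts that chose the members, so its 95% coverage does not hold and it is a description. The counts also leave out the 1 read that the authors' RPM adds to each, so the bounds run low against the rule. The members covered 2.10 of 43.2 Mb of listed peaks (4.86%) but held 1.68%, 2.03% and 2.01% of the reads in peaks, a mean of 1.91% ± 0.197 (SD, n = 3).

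Below the threshold the replicates ranked the members only loosely. Spearman's coefficient across the 5642 members was 0.201 for replicates 1 and 2, 0.231 for 1 and 3, and 0.224 for 2 and 3, against 0.583, 0.622 and 0.599 across other peaks. Pearson's r across members was 0.251, 0.270 and 0.271. These points share libraries and widths, and the rule narrows their range. Replicate 1 was the lowest of the 3 in 48.7% of members and in 35.1% of other peaks.

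Whether a low density recurs in a sample that was not used for the choice was asked by choosing peaks on 2 replicates and reading the other. Peaks under 1.5 RPM per kb in replicates 2 and 3 numbered 8359 and had a median of 1.23 RPM per kb in replicate 1, against 2.23 for all other peaks. The 9333 chosen on replicates 1 and 3 had 1.39 against 2.16 in replicate 2, and the 11690 chosen on replicates 1 and 2 had 1.52 against 2.32 in replicate 3. The medians of chosen peaks were thus lower than those of the rest in each left-out replicate. Of the chosen peaks 67.5%, 60.5% and 48.3% were under 1.5 in left-out replicates 1, 2 and 3, against 19.7%, 17.2% and 10.9% of the rest. Low density therefore recurred in many but not all of the chosen peaks, and in replicate 3 most of them were at or over the threshold. On the log2 scale of RPM per kb the difference was -0.85, -0.64 and -0.61, with a mean of -0.70 ± 0.13 (SD, n = 3). The replicates share 1 batch, 1 peak list and its widths, and the 3 choices overlap. A lower median was therefore likely from the start, and the difference is given as a description, with no test.

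**Figure D2:**
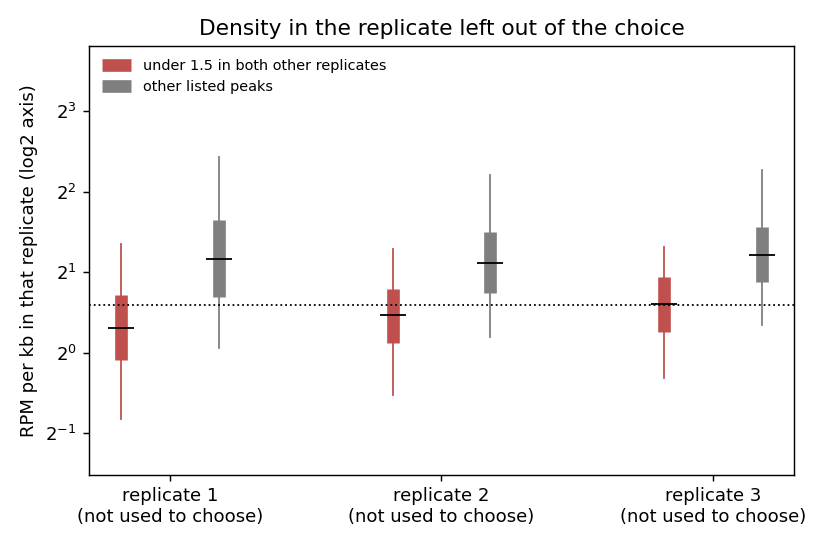
Density (RPM per kb, log2 axis) in each replicate of peaks under 1.5 in both other replicates and of other listed peaks, with the median (black mark), the quartiles (thick bar) and the 5th to 95th percentiles (thin line). The chosen peaks had medians of 1.23, 1.39 and 1.52, against 2.23, 2.16 and 2.32 for the rest.

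Low-density peaks were rarer near gene starts than other listed peaks. The exact intervals of shares cover counting error over peaks only. They take peaks as independent, although neighbouring peaks tended to be alike, so they run narrow. A promoter peak, taken as one no more than 3 kb from its nearest gene start, was found in 183 of 5642 members (3.24%, exact 95% interval 2.80 to 3.74) and in 8828 of 102674 other peaks (8.60%, 8.43 to 8.77). Peaks over the gene start itself numbered 13 in the members (0.230%, 0.123 to 0.394) and 3113 in the others (3.03%, 2.93 to 3.14). Distal intergenic peaks, outside all listed genes and promoters, made up 64.2% of the members and 51.9% of the others. Gene body peaks, which overlap a listed gene outside the promoter, made up 32.5% and 39.4%. Of the peaks in neither a promoter nor a gene body, 2 members and 170 others lay within 300 bp past a gene end. These are 0.0354% of all members and 0.166% of all other peaks.

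Because position was not used by the rule, it was also compared between peaks chosen in each replicate alone and the rest. Peaks under 1.5 RPM per kb made up 23.4%, 20.9% and 14.9% of the list in replicates 1, 2 and 3, so these sets are larger than the 5.21% under it in every replicate. They share 1 peak list and its labels, so the SD reflects only how the choice differs between replicates. The promoter share was 3.98%, 5.23% and 4.21% in chosen peaks, against 9.64%, 9.14% and 9.04% in the rest. The difference averaged -4.80 ± 0.87 percentage points (SD, n = 3) and was larger than the spread between replicates. For peaks over the gene start the shares were 0.229%, 0.910% and 0.508%, against 3.70%, 3.41% and 3.30%, a difference of -2.92 ± 0.50 percentage points (SD, n = 3). Both had the same sign in 3 of 3 replicates. The two-sided exact permutation of signs gave p = 0.25 for each, the smallest that 3 samples allow (adjusted p = 0.292 by Benjamini-Hochberg over 7 comparisons). The gene body share showed no common sign over the replicates. It was 37.3%, 39.0% and 36.7% in chosen peaks and 39.5%, 39.0% and 39.4% in the rest, a difference of -1.65 ± 1.47 percentage points (SD, n = 3), with exact sign-flip p = 0.50 (adjusted p = 0.50). Among peaks of at least 300 bp the mean gene body difference was 0.46 percentage points, of the opposite sign. It stayed negative in the other 8 of 9 alternatives.

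The share of low-density peaks rose with distance from a gene start. Of the 3126 peaks over a start, 0.416% were members (exact 95% interval 0.222 to 0.710, counting error over peaks only). The share was 2.89% (2.48 to 3.35) at 1 bp to 3 kb, 3.79% (3.56 to 4.03) at 3 to 20 kb, 5.45% (5.26 to 5.64) at 20 to 100 kb and 7.85% (7.48 to 8.24) beyond 100 kb. In each replicate alone the share under 1.5 also rose over the 5 classes, reaching 30.2%, 24.7% and 19.6% beyond 100 kb. Over the start it was 1.86%, 6.59% and 2.62% in replicates 1, 2 and 3, so that replicate 1 was the lowest there although it was the highest in the classes beyond 3 kb. The median distance to the start of the nearest gene was 56000.5 bp in members and 36893 bp in other peaks. Within 3 kb of a start but not over it, 92 members lay upstream and 78 past it, against 2791 and 2924 other peaks.

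**Figure D3:**
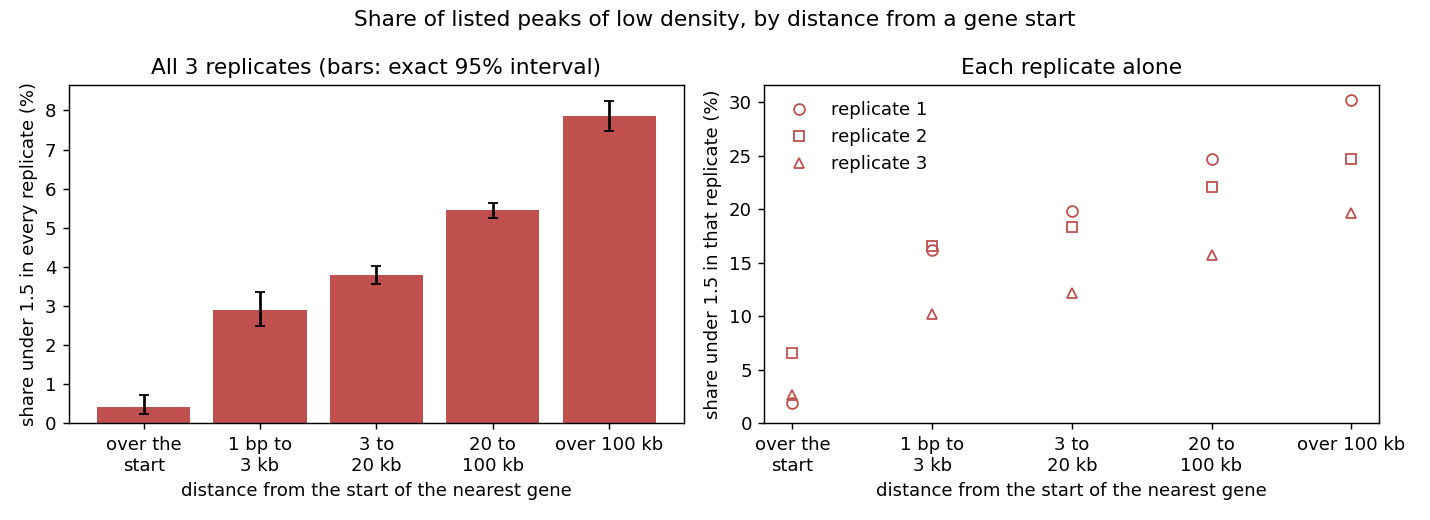
Share (%) of listed peaks under 1.5 RPM per kb in 5 classes of distance from the start of the nearest gene. On the left, all 3 replicates are under it and bars carry exact 95% intervals (counting error over peaks only). On the right each replicate stands alone. The share in all 3 was 0.416% over the start and 7.85% beyond 100 kb.

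The 13 gene starts covered by a low-density peak were looked at one by one. Their peaks had 0.736 to 1.49 RPM per kb across replicates. Their medians were 1.20, 1.30 and 1.42 RPM per kb in replicates 1, 2 and 3, against 3.60, 2.53 and 2.77 at the other peaks over a start. These values chose the peaks and carry no test. In 2 of the 13 the summed counts, divided by 2 for the mates, put the exact Poisson upper 95% bound under 1.5 RPM per kb, and the others are not separated from the threshold by counting. A single summit was listed for 7 of them, and 4 of the 13 genes were shorter than 5 kb.

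The lowest of these starts was that of evm.TU.ctg390.11, at 667291 to 667750 of ctg390. It had 23, 19 and 46 reads, or 0.984, 0.764 and 1.24 RPM per kb in replicates 1, 2 and 3. The gene is 1076 bp long, and 3 of its 19 peaks were members. The nearest listed peak, 3089 bp away, had 1.79, 2.29 and 2.18 RPM per kb, higher in each replicate than the peak at the start.

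The start of evm.TU.ctg452.20 (1368361 to 1368882 of ctg452) had 1.12, 0.775 and 1.46 RPM per kb. A neighbour 354 bp away had 2.73, 1.23 and 1.52 RPM per kb, so the pair differed least in replicate 3. At evm.TU.ctg1213.2 (2154 to 2819 of ctg1213) the values were 0.736, 1.4 and 1.42, and replicate 1 was the low one. Its neighbour 710 bp away had 2.73, 2.67 and 2.22 RPM per kb in the same replicates. At evm.TU.ctg232.45 (2519680 to 2520163 of ctg232, also overlapping evm.TU.ctg232.46) the values were 1.48, 1.05 and 1.25, and a peak only 87 bp away had 1.78, 2.27 and 2.16. In these genes a denser listed peak stood beside the low-density peak that covered the start. The start peaks were chosen for low density, and most listed peaks lie outside the rule. A denser neighbour is therefore largely set by the choice, and it is given as a description at these and the other starts.

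The widest of the 13, over the start of evm.TU.ctg371.18 (1013486 to 1014692 of ctg371), had 6 summits and 93, 81 and 146 reads. Its density was 1.47, 1.19 and 1.48 RPM per kb, and it was the only peak assigned to its gene. Its nearest listed peak had 2.21, 1.80 and 1.42 RPM per kb, lower than the start peak in replicate 3. The peaks over the starts of evm.TU.ctg287.18 (1173619 to 1174610 of ctg287) and evm.TU.ctg773.5 (467060 to 467978 of ctg773) averaged 1.43 ± 0.0707 and 1.44 ± 0.0388 RPM per kb (SD, n = 3). In all 3 at least 1 replicate was over 1.4 RPM per kb. The second peak of evm.TU.ctg773.5 was a member too, so that both of its peaks were of low density. The peak over the start of evm.TU.ctg94.5 (192669 to 193155 of ctg94) was the only one of its gene, with 1.20, 1.44 and 1.05 RPM per kb. Its nearest listed peak had 1.13, 1.23 and 1.52 RPM per kb, lower than the start peak in replicates 1 and 2.

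Over the remaining 5 starts the mean density was between 1.15 and 1.41 RPM per kb. They belonged to evm.TU.ctg1826.8 (267639 to 267984 of ctg1826), evm.TU.ctg505.5 (362532 to 362839 of ctg505), evm.TU.ctg2328.1 (55858 to 56143 of ctg2328), evm.TU.ctg659.1 (3778 to 4047 of ctg659) and evm.TU.ctg579.4 (375017 to 375277 of ctg579), which were 261 to 346 bp wide. Their nearest listed peaks averaged 1.75 to 2.46 RPM per kb. By this mean they were denser than the peak over the start in all 5, an order that the choice of low-density start peaks favours. In replicate 2 the neighbour at evm.TU.ctg505.5 was the lower of the pair, with 1.28 against 1.31 RPM per kb.

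Most low-density peaks held a single summit. A summit is the point of highest pile-up that the peak caller reports, and merging calls that overlap collects their summits in 1 listed peak. A single summit was listed for 4415 members (78.3%) and for 53.6% of other peaks. The mean number was 1.41 against 2.55 summits per peak, and 3.79 against 6.36 summits per kb of width. At least 6 summits were listed for 85 members (1.51%) and for 11.2% of other peaks. For single-summit peaks the summit lay a median of 14.4% of the width from the centre in members and 11.4% in other peaks.

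Peaks chosen in each replicate alone gave the same direction. More than 1 summit was listed for 27.7%, 26.0% and 22% of the peaks under 1.5 RPM per kb in replicates 1, 2 and 3, against 50.4%, 50.1% and 49.1% of the rest. The difference was -24.65 ± 2.29 percentage points (SD, n = 3), which exceeds the spread between replicates. It had this sign in 3 of 3 replicates. Calls of these libraries were among those merged, and a site with more reads is more readily called, so summit number is not independent of density and the difference is given as a description, with no test.

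Width alone did not separate the members, and it is the divisor in the rule. Their median width was 315 bp (quartiles 242 and 428 bp) and that of other peaks 317 bp (233 and 469 bp). Peaks of exactly 200 bp, the shortest in the list, were 11.9% of members and 12.6% of others. Peaks of 1000 bp or more were 1.97% of members and 3.51% of others. The share of members was highest at 250 to under 350 bp, with 6.39%, against 4.65% under 250 bp and 3.30% from 750 bp. For peaks chosen in each replicate alone the median width was 299, 299 and 294 bp, against 325, 324 and 323 bp in the rest. This log2 ratio averaged -0.12 ± 0.01 (SD, n = 3). It is given as a description, with no test, because the rule divides by width.

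Within each class of width low-density peaks had fewer summits than other peaks. At 350 to under 500 bp, 27.4% of members and 71.7% of other peaks had more than 1 summit. At 250 to under 350 bp the shares were 6.47% and 32.0%, at 500 to under 750 bp 71.9% and 95%, and from 750 bp 93.9% and 99.8%. Under 250 bp few peaks had several summits, with 0.792% and 4.93%. Peaks chosen in each replicate alone differed from the rest by -32.5 ± 5.07 percentage points at 350 to under 500 bp and by -3.38 ± 0.793 from 750 bp (SD, n = 3). The promoter share was also lower in members at every width, from 2.38% against 6.20% under 250 bp to 4.71% against 18.2% from 750 bp.

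**Figure D4:**
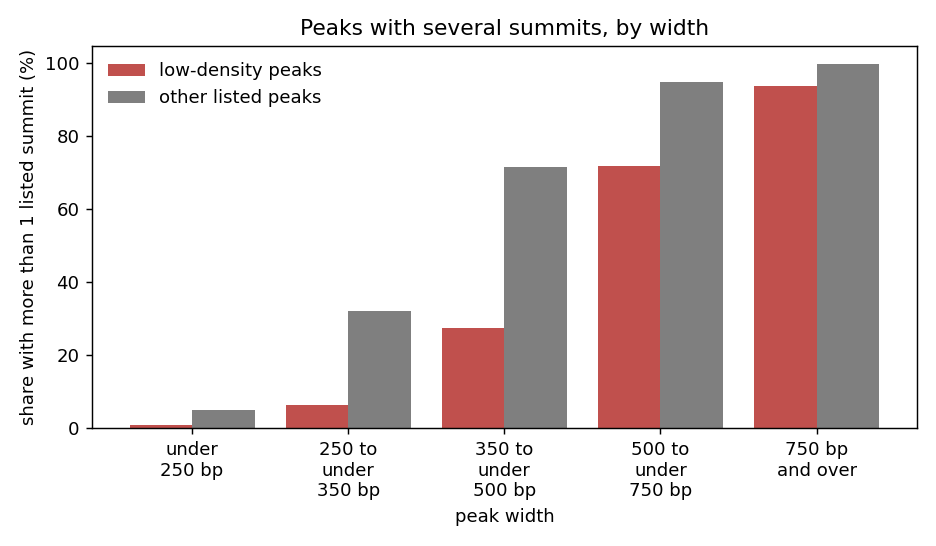
Share (%) of peaks with more than 1 listed summit in 5 classes of width, for low-density peaks and other listed peaks. Low-density peaks had the lower share in each class, with 27.4% against 71.7% at 350 to under 500 bp.

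The lowest members of at least 300 bp held almost no reads. The peak at 1633924 to 1634302 of ctg48, 41.9 kb upstream of evm.TU.ctg48.28, had 0, 3 and 5 reads in replicates 1, 2 and 3. Its mean density was 0.142 ± 0.0803 RPM per kb (SD, n = 3), and the authors' RPM adds 1 read to every count, so its replicate 1 value of 0.0498 stands for that read alone. The peak at 507643 to 508139 of ctg1313 had 4, 2 and 7 reads and 0.164 ± 0.0499 RPM per kb. The peak at 330448 to 330858 of ctg301 had 4, 5 and 9 reads and 0.260 ± 0.0330 RPM per kb (SD, n = 3). The summed reads of these peaks had exact Poisson upper 95% bounds of 0.281, 0.288 and 0.432 RPM per kb, which are under the mean outside peaks.

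The next was at 167865 to 168273 of ctg688, with 4, 6 and 17 reads and 0.231, 0.301 and 0.534 RPM per kb. A peak inside the gene model evm.TU.ctg5.20_evm.TU.ctg5.22 (1931454 to 1931801 of ctg5) had 2, 10 and 13 reads, and replicate 1 was again the lowest. The peak at 817591 to 817891 of ctg490, inside evm.TU.ctg490.11, had 9, 3 and 8 reads, with the lowest value in replicate 2. The other 4 of these 10, on ctg1513, ctg541, ctg1872 and ctg177, averaged 0.403 to 0.458 RPM per kb. Each of the 10 had a single summit, none was a promoter peak, 7 were distal intergenic and 3 lay in a gene body.

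Among members of any width, 5 were under 0.25 RPM per kb in every replicate. Besides those of ctg48 and ctg1313, these were at 1929073 to 1929288 of ctg156, at 171836 to 172093 of ctg47 and at 288527 to 288728 of ctg2297. They had 0, 0 and 1 reads, 0, 0 and 4 reads, and 1, 0 and 2 reads in replicates 1, 2 and 3. At widths of 202 to 258 bp the summed reads allowed up to 0.225, 0.291 and 0.330 RPM per kb (exact Poisson upper 95% bound). The peak of ctg156 lay 67 bp from its nearest listed neighbour, and that of ctg47 31956 bp from its own. So sites almost without reads stood both beside another listed peak and alone.

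At the other end stood wide members with many summits and more reads. The widest, at 78451 to 80655 of ctg652, had 2205 bp, 12 summits and 107, 144 and 266 reads. Its density was 0.924, 1.16 and 1.47 RPM per kb, with replicate 3 close to the threshold. The peak at 361721 to 363684 of ctg506 had 7 summits and 125, 121 and 181 reads, or 1.21, 1.09 and 1.12 RPM per kb, and its replicates were nearly level. The peak at 3389 to 5339 of ctg407 had 11 summits and 0.947, 1.01 and 1.18 RPM per kb. For these 3 the exact Poisson upper 95% bounds of the summed reads were all under 1.4 RPM per kb.

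The most summits in a member were 18, at 169297 to 171107 of ctg1656, where 87, 126 and 193 reads gave 0.916, 1.23 and 1.30 RPM per kb. It was followed by the peak at 533685 to 535256 of ctg297 with 13 summits and 1.01, 1.23 and 1.36 RPM per kb. All of the 10 widest members were outside promoters, 8 of them distal intergenic and 2 in a gene body. The one at 1377397 to 1379498 of ctg607 lay in the gene model evm.TU.ctg607.19_evm.TU.ctg607.22, while its nearest gene start, that of evm.TU.ctg607.24, was 245 kb away. It had 0.852, 1.27 and 1.36 RPM per kb, lowest in replicate 1. In 8 of these 10 widest members replicate 1 was the lowest.

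Low-density peaks stood farther from other listed peaks, and their nearest neighbour was more often of low density too. The median gap to the nearest listed peak was 5966 bp for members and 3424 bp for other peaks. The nearest peak was itself a member for 861 of 5636 members with a neighbour on their contig (15.3%), against 4.35% of other peaks. For peaks chosen in each replicate alone the shares were 37.9%, 30.5% and 25.5%, against 17.7%, 17.3% and 12.2% in the rest. The difference was 15.56 ± 4.04 percentage points (SD, n = 3), above 0 in 3 of 3 replicates. The density threshold that chose the peaks also classed their neighbours, and the replicates share the peak list and its neighbour pairs. The difference is therefore given as a description, with no test.

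The tie between neighbours was strongest at short gaps. At gaps under 500 bp the nearest peak was a member for 26.2% of members and 3.08% of other peaks, and at 500 bp to 2 kb for 19.6% and 3.31%. It was 12.3% and 4.06% at 2 to 10 kb, and 11.3% and 7.25% beyond 10 kb. For peaks chosen in each replicate alone, pairs more than 2 kb apart gave a difference of 10.37 percentage points, against 15.56 over all gaps. Nearest peaks that were no members themselves had median densities of 1.72, 1.83 and 1.94 RPM per kb beside members in replicates 1, 2 and 3, against 2.27, 2.19 and 2.33 beside other peaks.

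**Figure D5:**
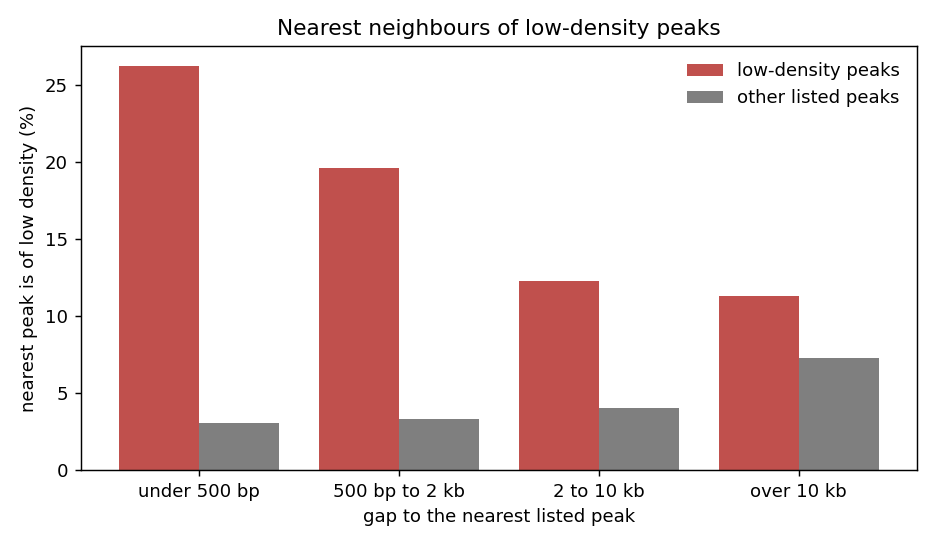
Share (%) of peaks whose nearest listed peak on the contig is of low density, by the gap between them, for low-density peaks and other listed peaks. The share was 26.2% against 3.08% at gaps under 500 bp and 11.3% against 7.25% beyond 10 kb.

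Runs of consecutive members were mostly short. Of the members, 4262 stood alone between other peaks and 1380 were in runs of at least 2. Runs of 2 numbered 520, and those of 3 or more 104. The longest run held 7 peaks at 234946 to 292476 of ctg184, a stretch of 57.5 kb inside the gene model evm.TU.ctg184.3_evm.TU.ctg184.2. This run was singled out after its values were seen. Its median densities were 0.754, 0.967 and 1.03 RPM per kb in replicates 1, 2 and 3. The peak at 236977 to 237544 had 18, 20 and 36 reads and 0.631, 0.650 and 0.790 RPM per kb. The peaks at 270245 to 271120 and 271371 to 271886 averaged 0.713 ± 0.132 and 0.742 ± 0.0544 RPM per kb (SD, n = 3). At 234946 to 235196 the values were 0.301, 1.26 and 1.45 RPM per kb, so replicate 1 alone was far below the threshold there. The next longest runs held 5 peaks each, on ctg1039, ctg155 and ctg801.

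Members were spread over 1375 of 2098 contigs. Of the 1348 contigs with at least 20 listed peaks, 252 had no member, the median share was 4.26% and the 95th percentile 13.6%. The share was highest on ctg1841, where 7 of 22 peaks were members (31.8%). The median density over all its peaks was 1.17, 1.33 and 1.53 RPM per kb in replicates 1, 2 and 3. It was followed by ctg623 with 6 of 21 peaks (28.6%), ctg177 with 10 of 38 (26.3%), ctg671 with 6 of 23 (26.1%) and ctg1017 with 9 of 36. On ctg1017 the median was 1.06 RPM per kb in replicate 1, against 1.45 and 1.57 in replicates 2 and 3. At least 20% of the peaks were members on 13 contigs.

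At least 1 member was assigned to 3625 of 12002 listed genes (30.2%), and 2410 of these had exactly 1. Such counts depend on how many peaks a gene holds, and 5.21% of all listed peaks were members. In 55 genes every assigned peak was a member, and these were genes with few peaks, 48 of them with 1 peak and 7 with 2. A gene with few peaks meets this more readily, so the count describes the list and not a property of these genes. Among the 4246 genes with at least 10 peaks, 2251 had no member. The largest share was in evm.TU.ctg486.29 (1189054 to 1279069 of ctg486, minus strand), with 6 of 11 peaks (54.5%). It was 7 of 14 in evm.TU.ctg329.7 and 6 of 12 in evm.TU.ctg801.24. The strongest peaks of these genes had means over the replicates of 3.07, 1.66 and 1.85 RPM per kb, so evm.TU.ctg329.7 and evm.TU.ctg801.24 had no peak with a mean above 2.21 RPM per kb, the mean of the medians of other listed peaks. The most members, 9 each, were assigned to evm.TU.ctg184.3_evm.TU.ctg184.2 (9 of 20 peaks), evm.TU.ctg797.1 (9 of 36) and evm.TU.ctg490.11 (9 of 41). Each peak is assigned to its nearest gene only, often over a long distance, and assignment says nothing about which gene a site acts on.

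Of the 11 receptor and signalling genes that the study singles out, 2 had a member. They were picked by the study with these samples in hand, so their counts are not independent evidence. Members were 4 of the 177 peaks of these genes (2.26%), against 5.21% of the list. The RYamide receptor gene evm.TU.ctg441.12, which encodes a neuropeptide receptor known from Drosophila melanogaster, had 3 members among its 13 peaks, and they are consecutive in the list and lie within the gene. The peak at 995359 to 995779 of ctg441, 103 kb from the gene start, had 31, 23 and 31 reads and 1.43, 1.00 and 0.922 RPM per kb. The peak at 1009569 to 1009791 had 1.01, 1.42 and 1.41 RPM per kb, and that at 1013730 to 1014107 had 0.998, 1.44 and 1.03 RPM per kb. Each was over 1.4 RPM per kb in at least 1 replicate.

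The other was evm.TU.ctg71.25, a G protein-coupled receptor gene, with 1 member among 24 peaks. It lay 78.9 kb upstream, at 2065916 to 2066249 of ctg71, and had 20, 24 and 36 reads, or 1.19, 1.32 and 1.34 RPM per kb. With an exact Poisson upper 95% bound of 1.70 RPM per kb, this peak is not separated from the threshold by counting. No member was assigned to the genes for Frizzled-10, which binds Wnt proteins (12 peaks of evm.TU.ctg321.8), the adhesion receptor E5 (evm.TU.ctg485.29, 15 peaks), the opsin family protein (evm.TU.ctg179.30, 9 peaks) or the epidermal growth factor receptor (evm.TU.ctg470.4, 30 peaks). The same held for the 14 peaks of evm.TU.ctg756.7, the gene of the G-protein signalling regulator Loco, and for the 19 peaks of evm.TU.ctg33.11. There was none either among the 27 peaks of evm.TU.ctg275.1, the 13 of evm.TU.ctg470.6 or the single peak of evm.TU.ctg658.6.

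For 1 of the 183 promoter members the gene has a function in the part of the study's annotation list used here. That list covers only genes that the study called changed in both accessibility and expression, with these samples in hand. The matching share of other promoter peaks is not given, so the count says nothing about the members as a set. This gene, evm.TU.ctg967.4, is annotated as an oxidoreductase that acts on CH-OH groups with a quinone as acceptor and is linked to cellular respiration. Its member, named after its values were seen, lay 0.468 kb upstream of the start at 84424 to 84902 of ctg967. It had 34, 33 and 31 reads in replicates 1, 2 and 3, or 1.378, 1.25 and 0.810 RPM per kb. It was lowest in replicate 3, the deepest library, and its summed reads put the exact Poisson upper 95% bound at 1.41 RPM per kb.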

How the data were processed

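Reads were trimmed by the authors and placed on ASM3288406v1 using BWA. They kept properly paired reads of good mapping quality outside the mitochondrial genome, called peaks with MACS2 and assigned nearest genes with ChIPseeker (BWA and MACS2 also stand in the submitters' processing notes). The deposited counts are reads per merged peak and library, not normalised, and the authors removed duplicates. The library totals recovered here are close to 2 times the deduplicated reads the study lists, so both mates were counted. The deposited RPM values are the count plus 1 per 1000000 reads of a library total. Density is RPM divided by width in kb. The members and lists were chosen with earlier results of these data known. Position, width, summits and neighbours were compared between peaks under the threshold in each replicate and the rest. Density was compared in the replicate left out of the choice. Two-sided exact sign-flip permutation tests over 3 replicates covered these 7 comparisons, and the Benjamini-Hochberg adjustment runs over all of them. A p is given only for the promoter, start and gene body shares. Named peaks, genes and contigs followed fixed rules: the lowest members of at least 300 bp, the widest, those with most summits, those over a gene start, those next to the threshold, the highest shares among genes with at least 10 and contigs with at least 20 peaks, and the study's receptor and signalling genes. Alternatives were other thresholds, RPM without the added read, scaling to reads in peaks, wider peaks only and leaving out replicates. Functions were tested on simulated data, and classes and gaps checked on 300 peaks with 0 mismatches. Python 3.11.15, pandas 2.3.3 and scipy 1.17.1 were used.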

Additional observations from a re-analysis of the deposited data

How the results depend on the processing

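Averages within classes of width were added after seeing the data. The number of low-density peaks followed the rule closely. It was 434 with a threshold of 1.0 RPM per kb, 22575 with 2.0, 3121 among peaks of at least 300 bp, and 15377 when only the mean of the replicates had to be under 1.5. With 1 replicate left out it was 8359 to 11690, the highest without replicate 3. It was 6731 without the added read and 5494 with scaling to reads in peaks. The gene body difference was 0.46 percentage points among peaks of at least 300 bp, against -1.65 over all peaks, and the cause was not tested. In the other 8 of 9 alternatives it was negative, from -4.08 with a threshold of 1.0 RPM per kb to -0.45 with 2.0. Within classes of width it was -2.84. The other 6 comparisons kept their sign under every alternative run. For all but the log2 density, leaving out 1 replicate only averages the per-replicate differences of the other 2. A sign common to all 3 cannot change in this way, so those ranges show spread and are no check of the sign. With 1 replicate left out, the ranges were -0.64 to -0.53 for log2 density in the left-out replicate, and in percentage points -5.24 to -4.37 for promoter peaks, -3.13 to -2.65 for peaks over a start, -25.63 to -23.39 for several summits and 13.23 to 16.73 for neighbours, and the smallest exact p was then 0.5. Within classes of width the promoter, start, summit and neighbour differences were -3.89, -1.90, -17.44 and 15.08 percentage points. Neighbours more than 2 kb apart gave 10.37. No paired analysis was possible because there is 1 group. Few reads per peak limit which single peaks are separated from the threshold.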
